A study of Oryza sativa with 4 samples.

Results

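The genes described here are those with more RNA in young panicles of the OX*OsAFB6* mutant than in those of control plants. They are 53 of the 287 genes in the authors' deposited table, which holds only genes that the authors called different between the genotypes. The genes were chosen by these means themselves: a listed gene was taken when its mean was higher in the mutant than in the control plants, which held for 58 of the 287 genes (20.2%). Of these 58, *OsMADS34*, the HAP2 subunit gene, the type A response regulator gene and the WUSCHEL-related homeobox gene were left out by identifier, and *ROC4* was left out because its description names a homeobox. As the means chose the genes, their differences are given as a description, and no test was run on them.

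The OX*OsAFB6* mutant is a line from 1 transformation event in the japonica rice Zhonghua 11, in which a vector built to express *CCT05* from a constitutive viral promoter had inserted upstream of *OsAFB6*. By the paper's account *OsAFB6* was overexpressed in this line at the seedling stage, and *CCT05* was not detectably overexpressed. The sample labels give the controls as negative plants of the same transformation, with Zhonghua 11 as the recipient, while the paper's legends for other assays call the control Zhonghua 11. Panicles under 1 mm, at the change from vegetative to reproductive growth, were pooled from 80 plants of each genotype and divided into 2 libraries, so that 4 libraries were sequenced in all. The study counts these as biological replicates, and as both came from 1 collection their spread does not cover separate growths. By the paper's account the mutant headed later than the control plants, while the panicles were taken by size. Plant age and date at sampling are not given for each genotype. They may thus differ between the genotypes and cannot be told apart from genotype in the ratios below.

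TIR1/AFB proteins are F-box subunits of a ubiquitin ligase that bind auxin together with Aux/IAA repressors. The repressors are then degraded, and the auxin response factors they hold back become active. In a young rice panicle the inflorescence meristem gives rise to branch meristems and then to spikelets, and auxin, cytokinin and a set of transcription factors set how many branches form. RNA from a whole panicle does not tell apart a larger share of the cells that express a gene from more RNA in each of these cells.

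The table gives 1 mean per genotype, from which the reads of each library could be worked out, with 1 solution in both genotypes for 52 of the 53 genes. Reads divided by the size factor of their library, a scale for its depth, are called normalized read counts below. The libraries of a genotype carry no replicate number in the means, so they are called A and B, with A the library of the smaller size factor (mutant 1.01 and 1.14, control 0.887 and 0.977). The same letter does not link a mutant library to a control library. Over the listed genes that could be resolved in a genotype, the mutant libraries held 219229 and 259952 reads and the control libraries 341283 and 359796, while the depth over all other genes is unknown. These sums cover different genes. The mutant sums leave out OS02G0178100, the listed gene with the highest mutant mean, while the control sums hold its 18078 and 10860 reads and leave out 3 other genes. The sums are thus not compared between the genotypes. The counts are not divided by gene length, so they are compared between libraries within a gene and not between genes.

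The control libraries differed from each other at many of these genes, and the mutant libraries much less. Over the genes with a value, the libraries of a genotype lay a median of 0.70 apart on the log2 scale in the control plants and 0.20 in the mutant. Control library A had the lower normalized read count in 45 of the 53 genes, and in 15 genes with reads in both control libraries these were more than 2-fold apart. OS08G0281500 and OS08G0496700, with 0 reads in control library B, come on top of the 15, since a gene with a 0 has no ratio and is not counted here or in the counts of the same kind below. The mutant libraries were more than 2-fold apart in 0 genes, and library A was the lower one in 27 and library B in 25. Among the 229 listed genes that were lower in the mutant, control library B was the lower one in 139 and control library A in 87, and the median distance was 0.30 between the control libraries and 0.32 between the mutant libraries. The control libraries were more than 2-fold apart in 4 of those 229 genes and the mutant libraries in 22. The 15 genes are *ML6*, *SPL8*, OS08G0101100, OS02G0828900, *GSTU1*, OS02G0814200, OS06G0653000, *EXPA2*, *NIP2-1*, *GER4* and, with no function given, OS01G0180500, OS07G0667300, OS12G0208900, OS01G0890500 and OS09G0565900. The part of the control libraries in the results below was not tested, and ratios with a control library left out are given beside those that it moved by over 1.5 times.

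**Figure D1:**
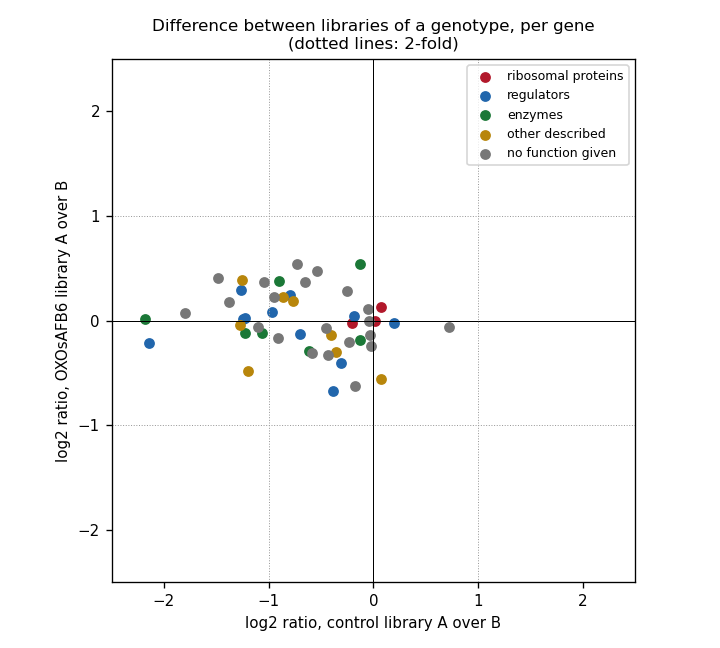
Difference between the libraries of a genotype for the 50 genes with a value above 0 in every resolved library. The x axis gives the log2 ratio of control library A over B and the y axis that of OX*OsAFB6* library A over B, each point is 1 gene, and dotted lines mark 2-fold. Most points lie left of 0, up to beyond 2-fold, whereas on the y axis no point passes 2-fold.

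The mutant mean was at least 4 times the control mean in 19 of the 53 genes, against 6.97% of all listed genes, a share that the choice of higher genes sets. The median log2 ratio of the 53 genes was 1.83, or 3.55-fold, and it ranged from 1.26 to 5.16. Over all 287 listed genes the median was -1.71, and over the 229 lower genes it was -1.84. Without control library B the median of the 53 genes was 2.16, and without control library A it was 1.56 over the 51 genes with a value. In all 52 resolved genes both mutant libraries lay above both control libraries. The libraries of the genotypes did not overlap in 100% of the 283 resolved listed genes, with the mutant higher in 20.1% of them, so this sets nothing apart. The lowest mutant library was more than 2-fold above the highest control library in 40 of the 52 genes and more than 4-fold above it in 10. Such gaps were not counted over the other listed genes, so these counts are not read as particular to the 53 genes.

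By the gene name and description in the table, 30 of the 53 genes had a stated function. They were grouped as 3 ribosomal proteins, 12 regulators of transcription, RNA or signalling, 7 enzymes and 8 other described proteins. For the other 23 genes the table gives no function. The median log2 ratio was 2.96 for the ribosomal proteins, 1.56 for the regulators, 1.83 for the enzymes, 2.01 for the other described proteins and 1.85 for the genes with no function given. The ranges of the groups overlapped, from 2.08 to 4.11 in the ribosomal proteins and from 1.26 to 2.27 in the regulators. The order of the lower medians depended on the control libraries, since without control library B the median was 2.07 for the regulators and 2.02 for the enzymes, and among genes with a lower mean of at least 100 it was 1.42 for both. The grouping mattered as well. With the kinase gene *NEK1* counted as an enzyme the regulator median was 1.62. With *NEK1* and *GER4* counted as enzymes the enzyme median was 1.62.

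**Figure D2:**
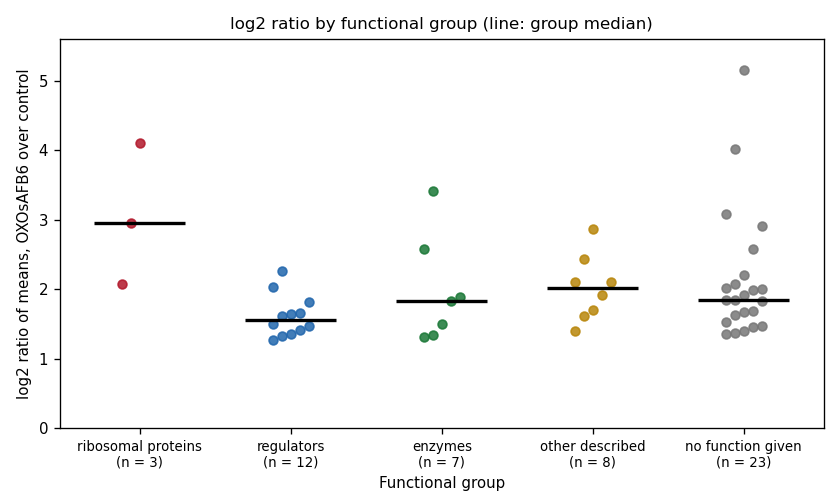
log2 ratio of the mutant mean over the control mean (y axis) by functional group (x axis). Each point is 1 gene and the line is the group median, which with all libraries is highest for the ribosomal proteins (2.96) and lowest for the regulators (1.56), while without control library B the enzymes (2.02) lie below the regulators (2.07).

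The ribosomal protein genes had the highest group median and libraries that lay close together. L28 and L5 are proteins of the large cytoplasmic subunit, and L5 binds the smallest of its RNAs. OS05G0541900 on chromosome 5, described as a putative L28 protein, had normalized read counts of 4869 and 4951 in the mutant libraries against 265 and 305 in the control libraries, a ratio of 17.2. *RPL5A* (OS01G0896800) had 4860 and 4874 in the mutant against 629 and 622 in the control plants, a 7.78-fold difference. *RPL5B* (OS01G0896700) had 13513 and 12386 against 3147 and 2996, or 4.22-fold. In each of the 3 genes the gap between the genotypes was many times the gap between libraries, and none of the control libraries were 2-fold apart. Whichever library was dropped, the log2 ratio stayed between 4.01 and 4.21 for the L28 gene, between 2.95 and 2.97 for *RPL5A* and between 2.01 and 2.14 for *RPL5B*.

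*RPL5A* and *RPL5B* have consecutive identifiers on chromosome 1, and the RefSeq annotation places 0 genes between them. Both are described as L5 proteins, and genes that are alike in sequence can share reads. Their sequences were not compared here, and how the authors counted shared reads is not given in the sources used here. The sum of both genes was 18372 and 17260 in the mutant libraries against 3776 and 3619 in the control libraries, 4.82-fold higher. The share of *RPL5A* in this sum was 26.4% and 28.2% in the mutant libraries against 16.7% and 17.2% in the control libraries. The balance between the rows of these genes thus differed between the genotypes by more than it did between libraries. Whether their reads can be told apart was not tested. Of the 4 listed genes described as ribosomal, these 3 were higher, and 1, OS03G0856500, was lower. That gene is described as a plastid ribosomal protein, with 616 and 999.6 in the mutant libraries against 3834 and 3098 in the control libraries. Over all 287 listed genes 20.2% were higher in the mutant. The search terms were chosen with earlier results known, so counts by term, here and below, only describe the list.

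Among the regulators, 6 genes were grouped here under transcription or chromatin, of which OS02G0828900 is described only as DNA-binding. *LAX* (OS01G0831000, chromosome 1) encodes the basic helix-loop-helix factor LAX PANICLE, which rice needs to form axillary meristems in the panicle. It had 231 and 305 in the mutant libraries against 67.6 and 83.9 in the control libraries, a 3.53-fold difference. *FL* (OS04G0598300, chromosome 4) is the rice relative of LEAFY and FLORICAULA, which control inflorescence and flower identity, and in rice it acts on panicle branching. It reached 6552 and 7140 in the mutant against 2081 and 3370 in the control plants, or 2.51-fold. *SPL8* (OS04G0656500, chromosome 4), a squamosa promoter-binding-like factor known in rice for forming the ligule of the leaf, had 604 and 599 in the mutant against 126 and 300 in the control plants, or 2.82-fold. All 3 genes had reads in each of the 4 libraries, as did *CYP78A11* and *OsMADS34*. The listed markers of the young panicle that were checked are *LAX*, *FL*, *CYP78A11* and *OsMADS34*. As these markers are in the list for being higher in the mutant, their reads cannot check the tissue. The mutant libraries of *FL* and *SPL8* lay closer together than their control libraries, while for *LAX* the mutant libraries were 0.40 apart on the log2 scale and the control libraries 0.31.

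The other genes of this kind were less well described. OS08G0101100 on chromosome 8 is described as an HMG type nucleosome assembly factor, a kind of protein that bends DNA. It had 2697 and 2204 in the mutant libraries against 519.6 and 1250.0 in the control libraries, or 2.77-fold. OS02G0828900, described as a putative DNA-binding protein PD3 of the chloroplast, had 2416 and 2378 against 536 and 1258, or 2.67-fold. OS06G0592500, a putative ethylene-responsive transcriptional coactivator, had 173 and 164 against 37.2 and 72.7, or 3.07-fold. In these 3 genes, and in *SPL8* and *FL*, control library B was the nearer to the mutant. Without control library A the log2 ratio was 0.97 for the HMG gene, 0.93 for the PD3 gene and 1.00 for *SPL8*. Without control library B it was 2.24 for the HMG gene, 2.16 for the PD3 gene and 2.25 for *SPL8*. Of the 10 listed genes whose description holds the word transcription, 5 were higher, namely *LAX*, *FL*, the coactivator gene and the left-out *OsMADS34* and HAP2 genes, and 5 were lower. *LAX* moved less with the control libraries, to 1.67 without control library A and 1.99 without control library B.

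The RNA-binding regulator *ML6* (OS09G0531200, chromosome 9) is a MEI2-like gene, of a family named after the fission yeast protein Mei2, which drives meiosis. It had 95.1 and 110 in the mutant libraries against 7.89 and 34.8 in the control libraries, a 4.81-fold difference. The control value of library A rested on 7 reads and that of library B on 34. Without control library A the log2 ratio of *ML6* was 1.56, and without control library B it was 3.70.

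Signalling genes made up the other 5 regulators. OS01G0257100 is described as a putative RALF, a small secreted peptide that in *Arabidopsis* acts through receptor kinases at the cell surface. It had 187 and 299 in the mutant against 51.8 and 67.6 in the control plants, or 4.07-fold, and here it was the mutant libraries that lay further apart. OS01G0765600, a calmodulin-like calcium-binding protein, had 258 and 263 against 87.9 and 76.8, or 3.16-fold. *NEK1* (OS03G0636800, chromosome 3), a kinase of the NIMA-related family that acts on microtubules and the cell cycle in other organisms, had 1286 and 1086 against 338 and 586, or 2.57-fold. OS01G0917500 is described as a leucine-rich repeat receptor kinase like EXTRA SPOROGENOUS CELLS, which in *Arabidopsis* limits the number of cells that enter meiosis in the anther. It had 2886 and 2797 in the mutant against 1107 and 1259 in the control plants. This was the smallest log2 ratio of the 53 genes, 1.26, and it changed little with the control libraries, from 1.17 to 1.36. Of the 9 listed genes described as kinases, these 2 were higher in the mutant and 7 were lower, among them *WNK7* and *CIPK15*. Among all listed genes 20.2% were higher, so this count is not read as a result about kinases.

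The fifth signalling gene may bear on the transgenic line itself. By the paper's account *OsAFB6*, on chromosome 3, was overexpressed in the mutant at the seedling stage, which is not the stage sequenced here. Of the listed genes, 0 had the identifier OS03G0187500. The row OS02G0178100, whose identifier lies on chromosome 2, is described as auxin signaling F-box 2 and as the protein of Os03g0187500, so that its identifier and its description name different loci. By the paper's account *CCT05*, the gene carried on the vector, also lies on chromosome 2, under a locus name of another annotation, and the identifier may be that of *CCT05*, which was not settled here. Which locus the reads came from cannot be told apart in the table, so the values below are those of the row and are not assigned to *OsAFB6* or to *CCT05*. Its mutant mean of 49357, rank 1 among the 287 listed genes on a scale not divided by gene length, was 3.13-fold the control mean of 15747. The control libraries had 20376 and 11118, and here control library A was the higher one. The log2 ratio of 1.65 was 2.15 without control library A and 1.28 without control library B. In the mutant 4 pairs of whole reads fitted the mean. In 1 of them the libraries had 50311 and 48403, and in the others they were at least 6.44-fold apart, so the mutant value is given as the mean only. This row alone held 37.5% of the summed mutant means of the 53 genes, again on counts not divided by gene length, so this is a share of reads. The other 3 listed genes whose description names an F-box were lower in the mutant, with log2 ratios down to -1.75.

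**Figure D3:**
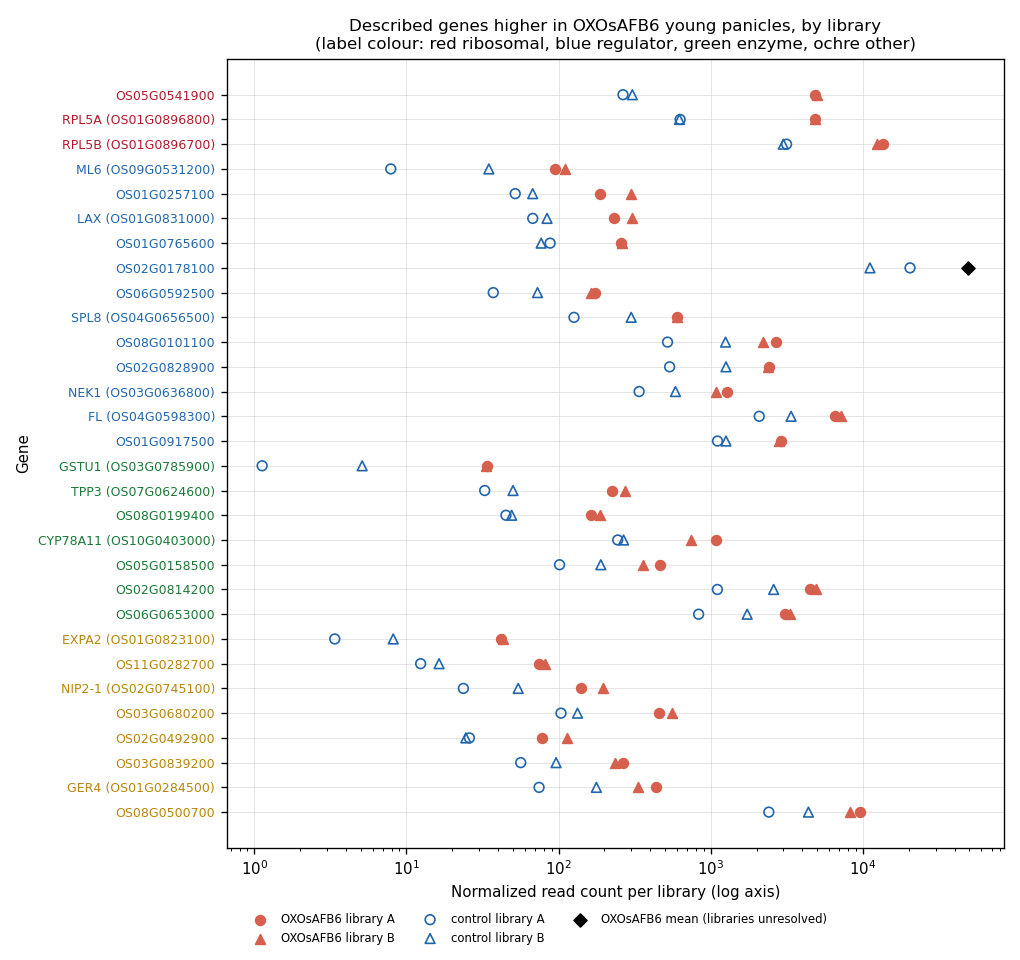
Normalized read count per library (x axis, log scale) of the 30 genes with a stated function (rows, ordered by group and then by log2 ratio). Filled red symbols are the OX*OsAFB6* libraries and open blue symbols the control libraries, with circles for library A and triangles for library B, and the diamond is the mutant mean of OS02G0178100, whose libraries were not resolved. In each of the other 29 rows both red symbols lie right of both blue ones, and the open circle lies left of the open triangle in 25 of the 30 rows.

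The enzymes served different pathways, and 2 of the 7 belong to wax synthesis. *GSTU1* (OS03G0785900, chromosome 3), a glutathione S-transferase that conjugates glutathione to reactive compounds, had the highest ratio of the group, 10.7. It had 33.7 and 33.3 in the mutant libraries against 1.13 and 5.12 in the control libraries. The control values rested on 1 and 5 reads, and with a pseudocount of 10 its log2 ratio went from 3.42 to 1.73. Without control library A it was 2.71, and without control library B 4.89. *TPP3* (OS07G0624600, chromosome 7) encodes a trehalose-phosphate phosphatase, an enzyme that removes the sugar signal trehalose-6-phosphate. In maize a gene of this family limits branching of the inflorescence. *TPP3* had 223 and 273 in the mutant against 32.7 and 50.2 in the control plants, or 5.99-fold. It kept a log2 ratio of 2.31 without control library A and 2.92 without control library B.

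*CYP78A11* (OS10G0403000, chromosome 10) is the cytochrome P450 known in rice as PLASTOCHRON1, which sets the pace at which leaves are initiated. It had 1075 and 739 in the mutant libraries against 245 and 267 in the control libraries, a 3.55-fold difference. Here the mutant libraries lay further apart (0.54 on the log2 scale) than the control libraries (0.13). The other listed P450 gene, OS05G0424300, was lower in the mutant, with 7.92 and 12.3 against 89.0 and 63.5. OS08G0199400, an acyl carrier protein desaturase that adds a double bond to fatty acids in the plastid, had 163 and 186 in the mutant against 45.1 and 49.1 in the control plants, or 3.71-fold. OS05G0158500, a putative serine carboxypeptidase, which trims proteins at their carboxyl end, had 465 and 357 against 101 and 189, or 2.83-fold.

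OS02G0814200 is described as a putative CER1, which makes alkanes of the cuticular wax in *Arabidopsis*, and OS06G0653000 as a putative Gl1, after the *glossy1* wax gene of maize. The CER1 gene had 4506 and 4882 in the mutant libraries against 1105 and 2589 in the control libraries, or 2.54-fold. The Gl1 gene had 3061 and 3332 against 832 and 1734, or 2.49-fold. They were the only listed genes whose description names CER1, Gl1 or wax. These terms match the descriptions of the 2 genes, which were chosen as higher, so their shared direction is no result about wax genes. In both genes the mutant libraries were within 0.12 on the log2 scale, while the control libraries were 1.23 and 1.06 apart. Without control library A the log2 ratios were 0.86 and 0.88, so that both genes were then less than 2-fold higher in the mutant, and without control library B they were 2.09 and 1.94.

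The other described proteins included 2 of the cell wall and 2 of membrane transport. *EXPA2* (OS01G0823100, chromosome 1) encodes an expansin, which loosens cell walls during growth. It had 41.6 and 42.9 in the mutant libraries against 3.38 and 8.19 in the control libraries, which rested on 3 and 8 reads, a 7.30-fold difference. With a pseudocount of 10 its log2 ratio went from 2.87 to 1.73. *GER4* (OS01G0284500, chromosome 1), a germin-like protein of the cell wall, had 438 and 335 against 74.4 and 177, or 3.07-fold. *NIP2-1* (OS02G0745100, chromosome 2) is the aquaporin known in rice as a channel for silicon uptake. It had 140 and 195 in the mutant against 23.7 and 54.3 in the control plants, or 4.30-fold. Of the 3 listed aquaporins it was the 1 that was higher, while *PIP1-1* and *TIP2-2* were lower, with log2 ratios of -1.80 and -2.62. OS03G0839200, a MATE efflux protein, which moves organic compounds across membranes, had 264 and 233 against 56.4 and 96.2, or 3.26-fold. The other 2 listed MATE genes were lower in the mutant. Without control library B the log2 ratios were 3.64 for *EXPA2*, 2.38 for *GER4* and 2.82 for *NIP2-1*, and without control library A they were 2.37, 1.12 and 1.63.

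OS08G0500700, described as a putative heat shock protein 82, a chaperone of the HSP90 family, had 9617 and 8213 in the mutant libraries against 2406 and 4382 in the control libraries, or 2.63-fold. The other listed gene found under heat shock or chaperone, a copper chaperone, was lower, with a log2 ratio of -1.58. Proteins with ankyrin repeats, which bind other proteins, are encoded by OS03G0680200 and OS02G0492900. The first had 456 and 560 in the mutant against 104 and 133 in the control plants, or 4.29-fold, and the second had 77.2 and 114 against 25.9 and 24.6, or 3.78-fold. The remaining listed ankyrin gene was lower, with a log2 ratio of -1.74. OS11G0282700 is described as a transposon protein of the Pong class, a DNA transposon family of rice. It had 74.3 and 81.5 in the mutant against 12.4 and 16.4 in the control plants, or 5.41-fold. Its log2 ratio was 2.44, and 1.85 with a pseudocount of 10. Copies of a transposon can share reads, and how these were counted is not given in the sources used here.

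**Figure D4:**
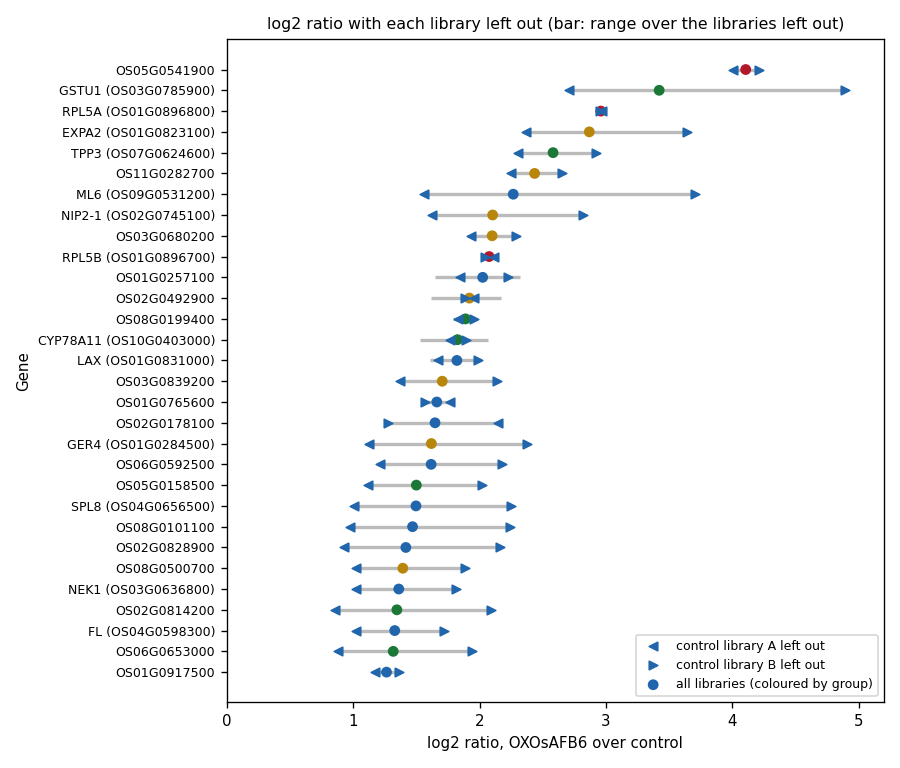
log2 ratio of the mutant over the control plants (x axis) for the 30 genes with a stated function (rows, by ratio), with points coloured by group (red ribosomal proteins, blue regulators, green enzymes, ochre other described proteins). Grey bars span the values with each of the 4 libraries left out in turn (the control libraries only for OS02G0178100), and triangles mark the values without control library A (pointing left) and without control library B (pointing right). The bars of the ribosomal protein genes are short, while those of *GSTU1* and *ML6* span more than 2 on the log2 scale.

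For 23 genes no function is given, of which 5 have an empty description and 18 only a clone, locus or uncharacterized protein name. Empty descriptions made up 9.43% of the 53 genes and 18.3% of the 229 lower listed genes. The abundance of the 23 genes in the mutant ranged from a mean of 20.1 to 14073, and in the control plants 13 of them had a mean under 100. Not divided by gene length, the highest count was that of OS03G0115800 on chromosome 3, with 13779 and 14367 in the mutant libraries against 2933 and 1775 in the control libraries, or 5.98-fold. It was one of the few genes in which control library B was the lower one. OS01G0890500 on chromosome 1 was next, with 1565 and 1489 against 221 and 771, and its control libraries were 1.80 apart on the log2 scale. Its log2 ratio of 1.62 was 0.99 without control library A and 2.79 without control library B. OS05G0518600 followed, with 819 and 823.5 against 313 and 322, and its libraries were the closest of the 3 within both genotypes.

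Among the undescribed genes with a control mean of at least 10, the largest ratios were those of EPlOSAG00000023747, OS08G0475500 and OS03G0115800. EPlOSAG00000023747, whose identifier gives no chromosome, had 350 and 392 in the mutant libraries against 15.8 and 29.7 in the control libraries, or 16.3-fold. OS08G0475500 had 204 and 147 against 16.9 and 24.6, or 8.47-fold. With 1 library left out their lowest log2 ratios were 3.64 and 2.83. OS08G0281500 rested on few reads, with 23 and 20 in the mutant libraries against 1 and 0 in the control libraries, and it gave the log2 ratio of 5.16 above, which became 3.76 with a pseudocount of 1 and 1.51 with a pseudocount of 10. The ratio of its pooled reads was 37.3, with an exact 95% interval from 6.34 to 1505 that covers counting error only. The interval shows how loosely 1 control read fixes this ratio. It takes no account of the gene having the largest ratio among genes chosen as higher, so it is no support for the difference. OS08G0496700 had 35 and 38 reads in the mutant libraries against 8 and 0 in the control libraries, with a log2 ratio of 2.91, or 1.60 with a pseudocount of 10. Without control library B, which held the 0 of both genes, their log2 ratios were 4.16 and 1.91.

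OS07G0136300 and OS07G0136500 have identifiers 200 apart on chromosome 7 and were both higher in the mutant. The first had 437 and 540 in the mutant libraries against 123 and 184 in the control libraries, or 3.18-fold, and the second had 537 and 635 against 161 and 164, or 3.61-fold. Apart from the *RPL5* genes this was the only pair of the 53 genes with identifiers up to 1000 apart. For *FL*, *SPL8*, OS03G0115800, OS03G0243700 and OS05G0124600 the listed gene within that distance was a lower one. OS03G0243700 had 489 and 454 in the mutant libraries against 167 and 173 in the control libraries, and OS05G0124600 had 309 and 357 against 112 and 131.

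Leaving aside the genes with 0 reads in a control library, the 4 other undescribed genes whose control libraries were over 2-fold apart had log2 ratios from 1.53 to 2.02. Without control library B they were 2.86 for OS01G0180500, 2.91 for OS07G0667300, 2.33 for OS12G0208900 and 2.15 for OS09G0565900, and without control library A they were 1.49, 1.43, 1.24 and 1.10. By identifier, chromosome 1 held 10 of the 52 genes with a chromosome (19.2%, against 14.4% of the listed genes), chromosome 8 held 7 (13.5% against 6.34%) and chromosome 3 held 7 (13.5% against 16.5%).

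**Figure D5:**
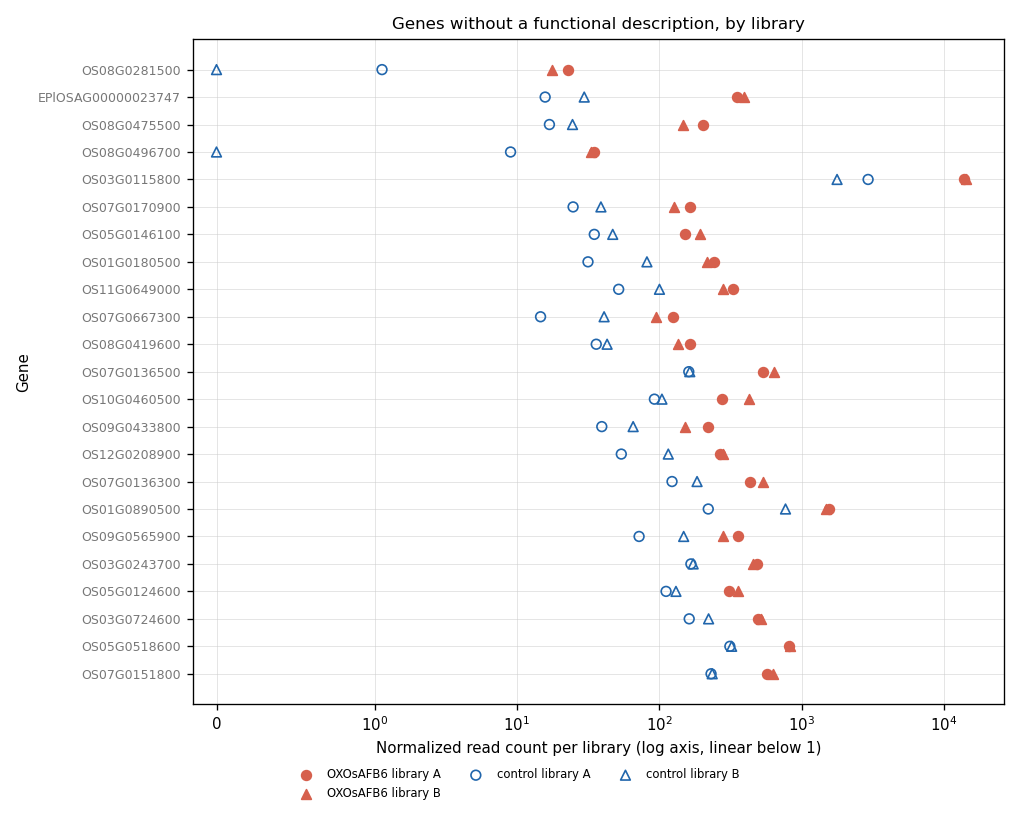
Normalized read count per library (x axis, log scale above 1 and linear below) of the 23 genes with no function given (rows, by log2 ratio). Filled red symbols are the OX*OsAFB6* libraries and open blue symbols the control libraries, with circles for library A and triangles for library B. The red symbols lie right of the blue ones in every row, and the control libraries of OS08G0281500 and OS08G0496700 include a value of 0.

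At the edge of the choice of genes, the higher genes with the smallest log2 ratios were OS01G0917500 at 1.26 and OS06G0653000 at 1.32. The listed genes on the other side with the smallest differences were OS03G0789433 at -1.24, with 3182 and 2787 in the mutant libraries against 5871 and 8185 in the control libraries, and OS03G0669300 at -1.25. No listed gene lay between 1.26 and -1.24, in a table of genes the authors called different.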

How the data were processed

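RNA of young panicles was sequenced in 4 libraries, 2 for each genotype, with the Illumina TruSeq kit. The submitters' processing notes name Bowtie 0.12.2 and the builds mm8 and IRGSP-1.0 without their roles. The counting tool, the annotation and the test are not given in the sources used here. The values deposited by the authors are a signal, 1 mean per genotype, headed RPKM. They behave as reads per gene over the size factor of their library, since 1 read is worth the same in every gene whatever its length. The deposited fold changes, p-values and adjusted p-values are the authors' own comparison and were not used.

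Whole reads were worked out for each library (Python 3.11.15 with pandas 2.3.3, numpy 2.4.6 and scipy 1.17.1). A mean counted as resolved when 1 pair only of whole reads gave it, allowing for rounding at 10 significant digits and for 4 standard errors in what 1 read is worth. This held for 286 mutant means and 284 control means, and 0 had no pair. Tested on 287 simulated means per genotype, the recovery gave the true reads for 286 and 285 and wrong reads for 0. A pair of the simulated means was set to the very few reads from which the recovery finds what 1 read is worth. That starting point was thus given and not tested. The log2 ratio is that of the deposited means, with no pseudocount and no filter. For medians over lower genes, mutant values resting on at most 3 reads per library were raised to 3 reads per library. Gene groups follow the name and description in the table. The genes, groups and terms were chosen with earlier results of these data known. As every listed gene was picked for its difference, none was tested here, and figures were drawn with matplotlib 3.10.9.

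All genes with a stated function are named. Of the others, those named are the 3 with the highest mutant mean, the 3 with the largest log2 ratio among those with a lower mean of at least 10, and those with at most 3 reads in a genotype or a neighbouring identifier. OS08G0496700, OS01G0180500, OS07G0667300, OS12G0208900 and OS09G0565900 were added after their values were seen. RefSeq names (ASM3414082v1) matched 13 of the 13 genes with a gene name and 0 of the 53 identifiers, and no sequence was used here. Alternatives were pseudocounts of 1 and 10, minimum means of 10 and 100, each library left out, reads without size factors and other groupings.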

Additional observations from a re-analysis of the deposited data

How the results depend on the processing

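No ratio changed its direction under the alternatives run, but where the groups of libraries do not overlap, leaving out 1 library cannot change it. Dropping 1 library at a time, the median log2 ratio ran from 2.95 to 2.97 for the ribosomal proteins, from 1.19 to 2.07 for the regulators, from 1.53 to 2.02 for the enzymes, from 1.78 to 2.33 for the other described proteins, from 1.49 to 2.24 for the genes with no function given and from 1.56 to 2.16 for all 53 genes. The lowest median passed from the regulators to the enzymes without control library B. Without size factors the median log2 ratio rose in every group, since the size factors of the mutant libraries are the larger ones. It moved from 2.96 to 3.17 for the ribosomal proteins and from 1.83 to 2.05 for all genes (52 with a value). Of the 53 genes, 19 were at least 4-fold higher, and 52 had libraries that did not overlap, with 1 not resolved. For single genes, leaving out control library B moved the ratio by over 1.5 times in 17 of 53 genes and leaving out control library A in 3 of 51, while leaving out either mutant library did so in 0 of 52. Without control library A, 5 genes were less than 2-fold higher, namely OS02G0814200, OS06G0653000, OS02G0828900, OS08G0101100 and OS01G0890500, the lowest at a log2 ratio of 0.86. No paired analysis was possible because the deposited means carry no replicate number. The depth of the libraries outside the listed genes is unknown, and genes with a few control reads have ratios that depend on the pseudocount.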
